A study of Homo sapiens with 50 samples.

Results

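The proteasome genes were followed across 50 one-colour Agilent arrays of a human lung carcinoma line, as the rows whose gene name begins with PSMA, PSMB, PSMC, PSMD, PSME, PSMF or PSMG, with PSMB8 and PSMB9 left out and the brightest probe standing for each gene. This gave 47 genes of the 21754 gene names on the array. PSMC3IP carries these letters but encodes a partner of the meiotic recombinases and is no proteasome gene, so it was set apart and 46 genes remained. The brightest probe of PSMA8, a subunit of the testis proteasome, was too dim, which left 45 proteasome genes for the tests. In 33 of the 47 genes only 1 probe was present. The probe of PSMD2, a scaffold subunit of the cap, was well above background on all 50 arrays, and that of PSMA8 on 5.

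The cells were H1299, a non-small cell lung carcinoma line, and H1299shRAD9, the same line stably expressing a short hairpin RNA against RAD9, a checkpoint protein of the DNA damage response. Each line was sampled in 5 groups of 5 arrays at 4 h. These were unirradiated controls (CTL), cells hit directly by 1 Gy of α particles whose neighbours did (DBP) or did not (DBN) show a bystander response, and the neighbouring, unirradiated cells that did (BP) or did not (BN) show one, as scored by micronuclei. The study describes more than 1 stable transfectant, and the labels do not say which of them gave each sample. Nothing in the labels says whether numbered samples were separate cultures, so the p-values measure the spread between these arrays.

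The proteasome is the barrel-shaped protease that degrades ubiquitin-tagged proteins. Its 20S core is built of rings of α subunits (PSMA) around rings of β subunits (PSMB), of which PSMB5, PSMB6 and PSMB7 carry the cutting sites, and in immune or interferon-treated cells PSMB8, PSMB9 and PSMB10 take their places. The 19S cap unfolds substrates with its ATPases (PSMC) and binds and trims ubiquitin with other subunits (PSMD), PSME genes encode alternative activators, PSMF1 encodes an inhibitor, and PSMG genes encode chaperones that assemble the core.

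The stretch before the annotated start is shown for 3 genes that the results turn on, PSMB10 for its difference between the lines, PSME2 as another interferon-inducible subunit, and PSMD8 for its difference between replicate numbers. The sequences are the 250 bases before the start in RefSeq, read 5′ to 3′, with every match to the motifs named below in capitals.
PSMB10, GRCh38.p14 chr16:67936851-67937100, minus strand: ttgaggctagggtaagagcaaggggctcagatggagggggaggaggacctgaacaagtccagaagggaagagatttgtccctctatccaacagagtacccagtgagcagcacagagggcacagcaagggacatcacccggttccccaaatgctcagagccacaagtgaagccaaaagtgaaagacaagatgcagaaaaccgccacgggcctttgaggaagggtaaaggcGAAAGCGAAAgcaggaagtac
PSME2, GRCh38.p14 chr14:24146611-24146860, minus strand: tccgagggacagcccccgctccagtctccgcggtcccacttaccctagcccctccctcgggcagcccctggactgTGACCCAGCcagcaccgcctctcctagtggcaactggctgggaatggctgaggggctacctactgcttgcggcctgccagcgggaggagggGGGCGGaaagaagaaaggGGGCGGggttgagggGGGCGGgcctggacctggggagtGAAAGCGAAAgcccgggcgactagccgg
PSMD8, GRCh38.p14 chr19:38374321-38374570, plus strand: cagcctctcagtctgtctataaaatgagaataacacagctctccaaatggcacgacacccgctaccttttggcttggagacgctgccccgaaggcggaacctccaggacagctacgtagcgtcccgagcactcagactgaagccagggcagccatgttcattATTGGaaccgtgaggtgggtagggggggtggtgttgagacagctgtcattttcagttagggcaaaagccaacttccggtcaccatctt

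Promoter windows of 300 bases, 250 before and 50 after the start, were found for 40 of the 46 genes, and both strands were searched. Only the first listed window of each of these genes was taken. The shares over all windows count every window, also where a gene has several. The interferon-type repeat, GAAA followed after any 2 bases by GAAA, was in 6 of the 40 windows (15%), against 3.57% of the 35116 windows in the table. The 6 were those of PSMB10, PSME1, PSME2, PSMA4, PSMB4 and PSMG4. The antioxidant response core TGACNNNGC, the kind of site bound by NFE2L1, was in 12 windows (30%, against 13.3%). CCAAT was in 18 (45%, against 34.6%) and GGGCGG in 26 (65%, against 45%). The motifs of a window could overlap. A match describes letters, not a bound site. PSMA7, PSMB1, PSMB6, PSMB7, PSMD4 and PSMG3 had no entry.

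Levels are log2 processed intensities relative to the median of the array, and differences were taken between arrays for the same probe. The share of probes well above background ran from 55.1% to 83.2% across arrays. Of the 50 arrays, 3 stood apart, their highest correlation with any other array being 0.977 to 0.980 where the median array reached 0.996. They were H1299 DBN replicates 1 and 2 and H1299 DBP replicate 1. RAD9A, the target of the hairpin, was lower in H1299shRAD9 CTL (3.14) than in H1299 CTL (3.45), by a log2 difference of -0.30 that was not called (limma adjusted p = 0.0855). This is a level of RNA, whereas the study chose its transfectants by their reduced RAD9 protein on Western blots. Of 6 epithelial markers 4 passed the background filter (KRT7, KRT8, KRT18 and KRT19, but not EPCAM and CDH1), and of 4 mesenchymal markers 3 did (VIM, CDH2 and ZEB1, but not FN1). KRT18 and VIM had mean levels of 10.5 and 11.6 in H1299shRAD9 CTL and of 10.2 and 11.1 in H1299 CTL. Of the blood markers PTPRC, CD3E and CD14 passed, and of 3 endothelial markers 1 did (CDH5, but not PECAM1 and VWF). PTPRC was called higher in H1299shRAD9 in CTL (0.81 against -0.45, adjusted p = 0.0128) and in BP (adjusted p = 0.0475). Its part in the differences between the lines was not tested. The proteasome genes, each by its brightest probe, had an SD within groups with a median of 0.187 in H1299shRAD9 and 0.267 in H1299. Over all features the median was 0.251 and 0.346. The features were not matched for level, so the part of brightness in this gap was not tested.

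**Figure D1:**
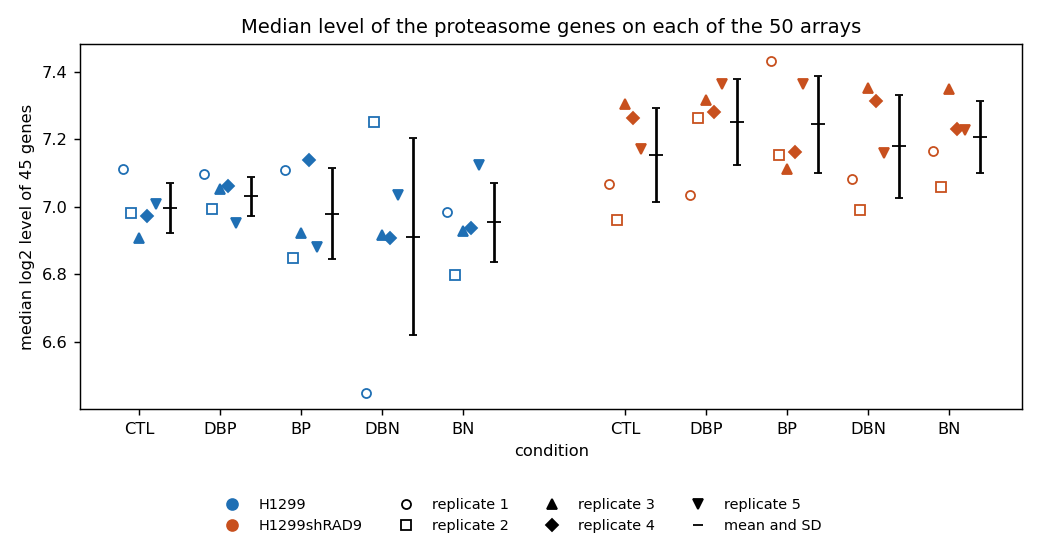
Median log2 level, relative to the array median, of the 45 tested proteasome genes on each array (y) by condition (x), with H1299 at left and H1299shRAD9 at right, 1 symbol per replicate number and the mean and SD beside each group. The arrays lie between 6.45, H1299 DBN replicate 1, and 7.43.

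The first question was how the lines differ. PSMB10 was higher in H1299shRAD9 than in H1299 in all 5 conditions, and it was the 1 proteasome gene called in each of them. In CTL, 6 of 45 proteasome genes were called, which here means a limma p below 0.006 together with a Benjamini-Hochberg rate below 10% over 20079 features. The share of all features called was 15.3%. Of the 6 genes, 5 were higher in H1299shRAD9 (10.2% of all features) and 1 was lower (5.06%). In the other conditions every called proteasome gene was higher in H1299shRAD9. In directly hit cells there were 2 in DBP, where 6.64% of all features were called and 3.12% were called higher, and 1 in DBN (4.38% and 2.73%). In neighbouring cells there were 2 in BP (8.47% and 6.04%) and 2 in BN (9.35% and 6.47%).

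The median difference of the 45 genes was above 0 in each condition, as was that of all features. On the log2 scale it was 0.10 in CTL against 0.12 over all features. It was 0.15 in DBP (0.13 over all features), 0.23 in DBN (0.16), 0.24 in BP (0.15) and 0.22 in BN (0.16). With quantile normalization the median of the 45 genes was -0.09 in CTL, -0.01 in BP and -0.02 in BN, and with another background correction (normexp) it was -0.06 in CTL, so the direction of the list as a whole depended on the processing. Of the 13 slides 2 held both lines, and in 4 of the 5 conditions no slide held the groups of both lines, the exception being 1 slide in BP. Of the 25 H1299shRAD9 arrays 23 were scanned on days when no H1299 array was. Line cannot be told apart from slide and scan day in these comparisons. In bulk samples, more of the cells with a transcript and more transcript per cell cannot be told apart either.

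PSMB10, the inducible subunit that replaces PSMB7, had levels in H1299shRAD9 CTL of 7.09, 7.02, 7.39, 7.18 and 7.12, and in H1299 CTL of 6.40, 6.62, 6.53, 6.81 and 6.95. The groups did not overlap. The log2 difference was 0.50 (SE 0.126, adjusted p = 0.0220), or 0.38 above the median of all features. In directly hit cells it was 0.41 in DBP (adjusted p = 0.0863) and 0.65 in DBN (adjusted p = 0.0893), and in neighbouring cells 0.58 in BP (adjusted p = 0.0428) and 0.67 in BN (SE 0.126, adjusted p = 0.0129). Over all 25 arrays of each line PSMB10 ranged from 7.01 to 7.53 in H1299shRAD9 and from 6.38 to 6.97 in H1299, with no overlap. Its probe lies on the minus strand at hg19 chr16:67968412-67968471. On the 1 slide that held BP arrays of both lines, the level of PSMB10 was 7.43 on the H1299shRAD9 array and 6.49 on the H1299 array. The median level of the tested proteasome genes also differed between these arrays. It was 7.43 on the H1299shRAD9 array, the highest of all arrays, and 6.88 on the H1299 array. With 1 array of each line, the part of the slide in the difference of PSMB10 was not tested. The GAAA repeat in capitals in the window of PSMB10 is also in that of PSME1, which was called lower in CTL. It is in those of PSME2, PSMA4, PSMB4 and PSMG4 too, which were not called between the lines. The part of the repeat in the difference was not tested.

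The direction of PSMB10 held in every alternative run, while the call did not. In CTL the call held in all 10 fits that left out 1 array (adjusted p from 0.0213 to 0.0546) and was lost with 75th percentile scaling (0.41, adjusted p = 0.0621), quantile normalization (0.32, adjusted p = 0.136), normexp (0.37, adjusted p = 0.0549), slide as a random block (0.50, adjusted p = 0.0677) and the replicate number as a block (adjusted p = 0.0603). In BN the call held in all 10 such fits and was lost with normexp, where the difference was 1.37 (adjusted p = 0.185). In DBP it was lost in 7 of 10 fits that left out 1 array, in DBN in 6, and in BP without H1299shRAD9 replicate 1 (0.54, adjusted p = 0.0713) or 5 (0.52, adjusted p = 0.114). In these 3 conditions the call was also lost with 75th percentile scaling, quantile normalization and the replicate number as a block. Of all alternatives besides leaving out 1 array, 7 of 11 ended the call in DBP, 8 of 11 in DBN and 4 of 10 in BP. Without the 3 arrays that stood apart, the DBN difference was 0.60 (adjusted p = 0.0937) and was not called.

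The partners of PSMB10 in the immunoproteasome were not called in any condition. PSMB8, the inducible counterpart of PSMB5, had levels in H1299shRAD9 CTL of 1.76, 1.59, 2.54, 2.41 and 2.27, and in H1299 CTL of 2.38, 2.80, 2.75, 2.47 and 2.61. Replicates 1, 2 and 5 of H1299shRAD9 lay below every H1299 array, and the others overlapped with them. The difference was -0.49 (SE 0.186, adjusted p = 0.0839) and missed the p threshold. PSMB9, the counterpart of PSMB6, differed by 0.07 (adjusted p = 0.618).

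Of the cutting subunits of the standard core, none was called. In CTL, PSMB5 differed by 0.09 (95% interval -0.19 to 0.37), PSMB6 by 0.10 (-0.12 to 0.32) and PSMB7 by -0.26. PSMB11, the thymus subunit, was dim in both lines, and its probe was well above background on 48 of the 50 arrays. It was called higher in CTL (0.66, adjusted p = 0.0254) and in BN (0.78, adjusted p = 0.0172), with levels of 0.25, -0.41, 0.37, -0.28 and -0.23 in H1299shRAD9 CTL and -0.91, -0.71, -0.87, -0.78 and -0.32 in H1299 CTL. The CTL groups overlapped and the BN groups did not. The CTL call was lost in 5 of 10 fits without 1 array and in 5 of 12 other alternatives, and the BN call in 2 of 11, among them normexp (0.32, adjusted p = 0.331). No α subunit was called in a line comparison.

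Among the activators, PSME3, the nuclear activator PA28γ, was higher in H1299shRAD9 CTL. Its levels were 4.73, 4.79, 4.45, 4.67 and 4.80, and in H1299 CTL 4.55, 3.19, 3.90, 4.16 and 3.78. Of the H1299 arrays, replicate 1 alone overlapped. The difference was 0.77 (SE 0.208, adjusted p = 0.0274) in CTL and 0.62 (SE 0.165, adjusted p = 0.0633) in DBP, where the groups did not overlap. It was 0.22 in DBN, 0.56 in BP and 0.45 in BN, where it was not called. Leaving out 1 array ended the CTL call in 6 of 10 fits (adjusted p up to 0.0599) and the DBP call in 4 of 10 (adjusted p up to 0.153), at the p threshold or the rate. The other alternatives ended them in 6 of 12 and 5 of 12 cases. PSME1, a subunit of the interferon-inducible activator PA28, was the 1 gene called lower.

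PSME1 had levels of 2.52, 2.26, 2.44, 2.43 and 2.33 in H1299shRAD9 CTL and of 2.74, 2.98, 2.68, 2.65 and 2.75 in H1299 CTL. The groups did not overlap, and the difference was -0.36 (SE 0.103, adjusted p = 0.0314). The call was lost in 7 of 10 fits without 1 array, with a difference from -0.31 to -0.39, and in 4 of 10 other alternatives. In directly hit cells the difference was -0.09 in DBP and -0.01 in DBN, in neighbouring cells 0.11 in BP and -0.13 in BN, and none was called. PSME2, which pairs with PSME1, differed by -0.09 in CTL (adjusted p = 0.656). PSME4, a nuclear activator, differed by 0.11, and PSMF1, the inhibitor, by 0.26 (adjusted p = 0.102). A dimmer probe of PSMF1 was called higher in CTL (0.47, limma adjusted p = 0.0270). Its other tested probes differed by 0.24 and 0.14 and were not called.

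**Figure D2:**
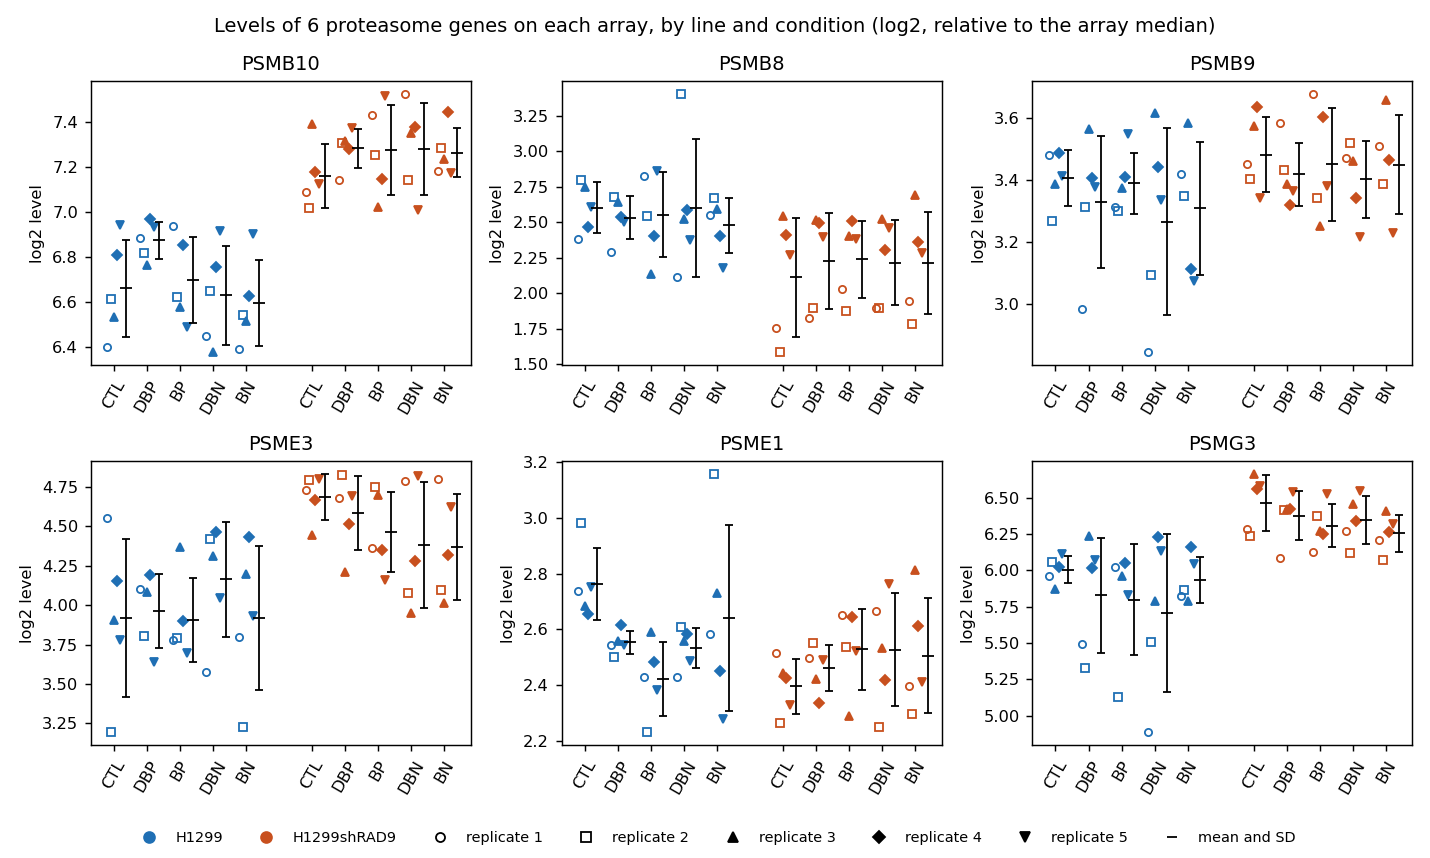
Log2 level relative to the array median (y) of PSMB10, PSMB8, PSMB9, PSME3, PSME1 and PSMG3 on each array, by condition (x) with H1299 at left and H1299shRAD9 at right, 1 symbol per replicate number and the mean and SD beside each group. PSMB10 lies above 7 on all 25 H1299shRAD9 arrays and below it on all 25 H1299 arrays, while PSMB9 overlaps throughout.

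Among the assembly chaperones of the core, PSMG3 was higher in CTL, with levels of 6.29, 6.23, 6.66, 6.56 and 6.58 in H1299shRAD9 and of 5.96, 6.06, 5.87, 6.02 and 6.11 in H1299. The groups did not overlap, and the difference was 0.46 (SE 0.114, adjusted p = 0.0207), a call that held in all 10 fits without 1 array but was lost in 5 of 11 other alternatives, with a difference down to 0.30 (quantile normalization, adjusted p = 0.0659). PSMG1 was called in BP (0.50, SE 0.133, adjusted p = 0.0491), a call lost in 4 of 10 such fits and 4 of 9 other alternatives, and differed by 0.36 in CTL (adjusted p = 0.0477), where its p of 0.00841 missed the threshold. PSMG2 differed by -0.14 and PSMG4 by 0.19 in CTL, and neither was called.

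In the 19S cap no ATPase and none of the 11 other subunits was called between the lines. The CTL difference was 0.09 for PSMD4, a ubiquitin receptor, 0.12 for PSMD11, a scaffold subunit, and 0.10 (95% interval -0.12 to 0.31) for PSMD14, the deubiquitinase of the lid. PSMD10, a chaperone of cap assembly, was called higher in CTL by 0.83 (adjusted p = 0.0275) with its brightest probe. The other tested probes of PSMD10 gave -0.17 and -0.07 and were not called, so its probes disagreed in direction. The call was lost in 5 of 10 fits without 1 array (adjusted p up to 0.0612) and in 5 of 12 other alternatives, and the difference was 0.20 with all its probes averaged (adjusted p = 0.270). PSMC3IP, which is no proteasome gene, was higher in CTL by 0.46 (adjusted p = 0.00857), a call that held in all 10 fits without 1 array and all 11 other alternatives. In DBP it was called at 0.56 (adjusted p = 0.0898), a call lost in 8 of 10 fits without 1 array (adjusted p up to 0.210) and in 8 of 11 other alternatives.

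Of 33 tested genes that bind, regulate or feed the proteasome, none was called in CTL (15.3% of all features), DBP (6.64%), DBN (4.38%) or BN (9.35%), and 1 was called in BP (8.47%). This was NFE2L1, the transcription factor that raises subunit genes when the proteasome is inhibited. It differed by 0.71 in BP (SE 0.155, adjusted p = 0.0262), where the groups did not overlap, and by 0.25 in CTL (adjusted p = 0.213). POMP, the maturation factor of the core, differed by 0.11 in CTL (adjusted p = 0.674).

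The next question was whether irradiation or a bystander signal moved these genes. No proteasome gene was called in any of the 8 comparisons with CTL, in the 4 comparisons of directly hit with neighbouring cells, or in the 4 interactions of line and condition (limma). In H1299shRAD9 the shares of all features called were 1.53% in DBP, 2.78% in DBN, 1.37% in BP and 0.0299% in BN. In H1299 they were 0.0349% in DBP, 0.00996% in DBN and 0% in BP and BN. The median 95% interval reached 0.203 to either side of the difference in H1299shRAD9 DBP and 0.464 in H1299 DBN. A difference smaller than the half-width of its own interval does not reach p below 0.05. The thresholds for a call are stricter, so larger shifts could also go uncalled.

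At an unadjusted p under 0.05, 4 of the 45 genes passed in H1299shRAD9 DBP, against 14.6% of all features. The number was 1 in DBN (14.5%), 2 in BP (10.5%) and 4 in BN (13.4%). In H1299 it was 1 in DBP (5.85%), 0 in DBN (2.96%), 1 in BP (5.56%) and 0 in BN (3.23%).

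The median differences from CTL lay on both sides of 0. In H1299shRAD9 they were 0.06 in DBP (0.01 over all features), 0.01 in DBN (-0.02), 0.08 in BP (0.01) and 0.02 in BN (-0.01). In H1299 they were 0.01 in DBP (0.03), -0.08 in DBN (-0.06), -0.05 in BP (-0.04) and -0.04 in BN (-0.03). The comparisons of a line share their 5 CTL arrays.

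**Figure D3:**
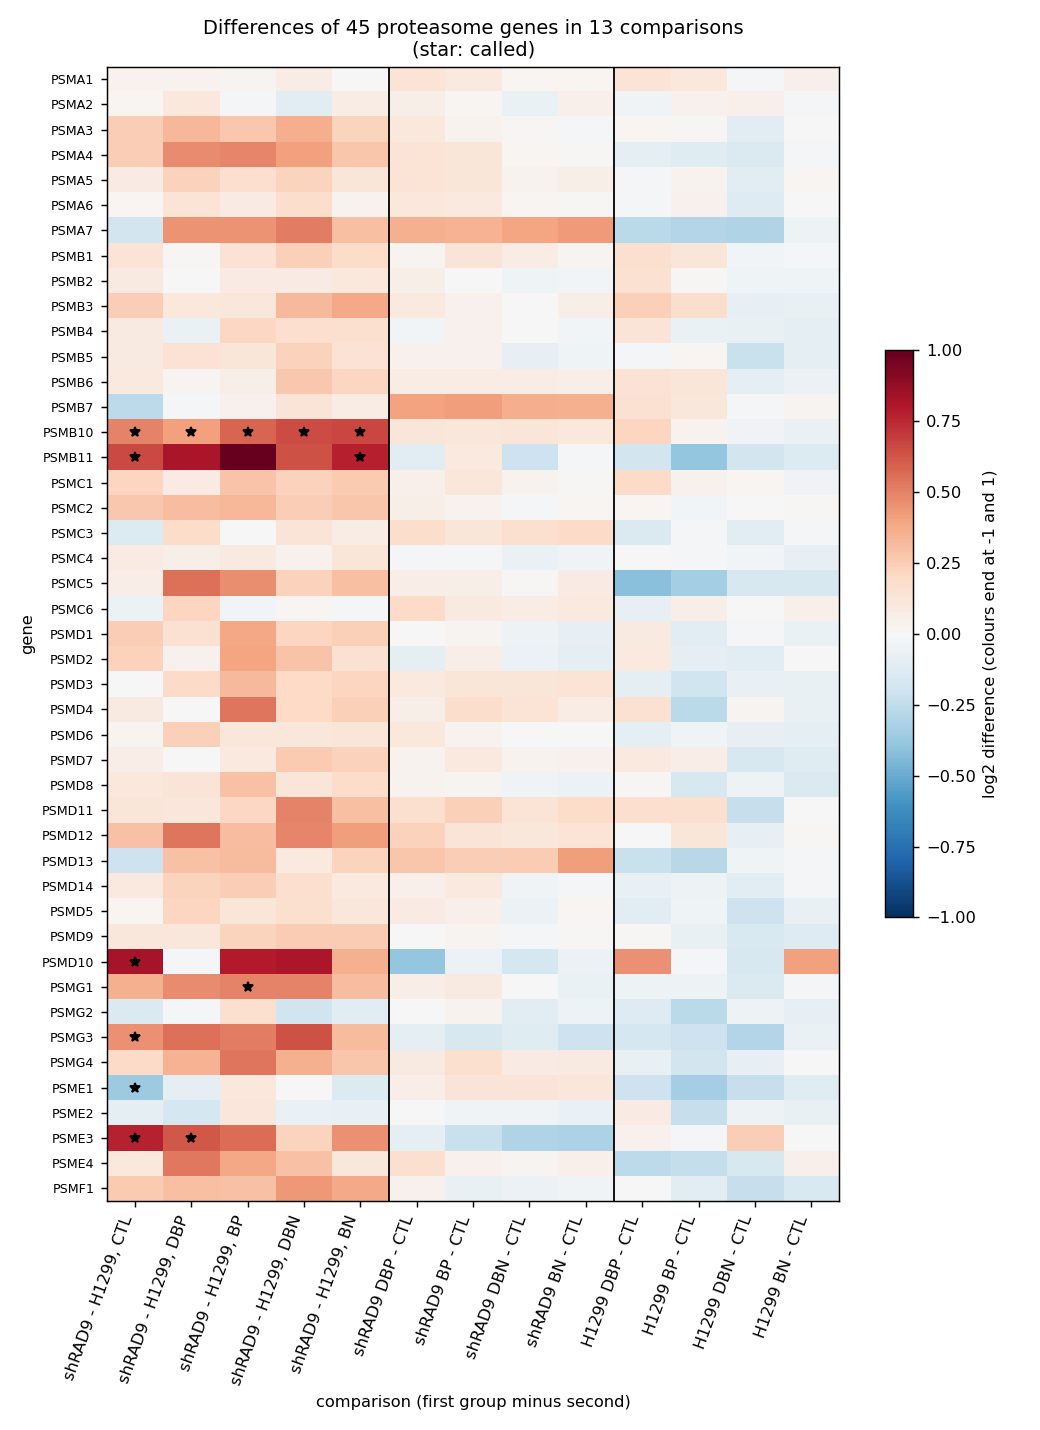
Log2 difference (colour) of each of the 45 tested proteasome genes (y) in 13 comparisons (x), the first 5 between the lines, the next 4 of H1299shRAD9 with its CTL and the last 4 of H1299 with its CTL, with a star where the gene was called. The stars lie only in the line comparisons, and PSMB10 is the 1 gene with a star in all 5 of them.

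PSMA7, an α subunit, had the smallest p among the proteasome genes in all 4 H1299shRAD9 comparisons with CTL. Its CTL levels were 6.84, 6.69, 7.03, 7.15 and 7.16. They were 6.83, 7.36, 7.53, 7.43 and 7.51 in DBP, and 7.13, 7.33, 7.65, 7.51 and 7.40 in BN. It was higher than its CTL partner in 4 of 5 pairs in DBP and in 5 of 5 in BP, DBN and BN. The difference was 0.36 in DBP (adjusted p = 0.192), 0.39 in DBN (adjusted p = 0.107), 0.35 in BP (adjusted p = 0.288) and 0.43 in BN (adjusted p = 0.189), so none was called. PSMA7 was called in DBN with quantile normalization (adjusted p = 0.0861), with normexp (adjusted p = 0.0710) or without replicate 5 (adjusted p = 0.0885), and in DBP without replicate 1 (adjusted p = 0.0893). These values rest on 1 set of CTL arrays. That set also differed in an index of RNA quality, the median log2 difference between the 5′-most and the 3′-most probe of 3459 genes. It was -1.54 to -1.48 on the 5 CTL arrays and -1.47 to -1.31 on the other 20 arrays of H1299shRAD9, without overlap, and its part in these differences was not tested.

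In H1299 PSMA7 had the smallest p in DBN alone. PSMC5, an ATPase of the cap, differed from CTL by -0.42 in DBP (adjusted p = 0.734) and PSME1 by -0.34 in BP (adjusted p = 0.825), where it was lower in 5 of 5 pairs. PSMA7 differed by -0.30 in DBN (adjusted p = 1.000) and PSMD10 by 0.41 in BN (adjusted p = 0.999). None was called.

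The difference from CTL was also compared between the lines. The smallest p of a proteasome gene was that of PSMA7 in 3 of the 4 interactions, where its difference from CTL was larger in H1299shRAD9 by 0.69 in DBN (adjusted p = 0.285), 0.63 in DBP (adjusted p = 0.632) and 0.48 in BN (adjusted p = 0.738), and that of PSME1 in BP (0.47, adjusted p = 0.786). None was called, and 0% of all features was called in these interactions. Between directly hit and neighbouring cells, PSMD10 had the smallest p in H1299shRAD9 DBP against BP (-0.33, adjusted p = 0.936) and in H1299 DBN against BN (-0.57, adjusted p = 1.000). It was PSMD13, a lid subunit of the cap, in H1299shRAD9 DBN against BN (-0.16, adjusted p = 1.000), and PSME2 in H1299 DBP against BP (0.31, adjusted p = 0.650). Of all features, 0.0847% and 0.0797% were called in these comparisons of H1299shRAD9 and 0.00498% in each of those of H1299.

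PSMB7 differed among its CTL arrays. Its H1299shRAD9 CTL levels were 8.97, 7.40, 9.63, 9.78 and 9.66, with replicate 2 below the rest. The differences from CTL of 0.40 in DBP and 0.41 in BP had SEs of 0.243 and 0.241 and were not called. Of the 33 other genes, 1 was called in the comparisons with CTL, AKIRIN2 in H1299shRAD9 BP (0.40, adjusted p = 0.0900). AKIRIN2 is a nuclear protein that brings proteasomes into the nucleus. In that comparison 1.37% of all features were called. No feature, and so not AKIRIN2, was called there with no background filter, with no replicate block, or without replicate 2 or 4.

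Within H1299shRAD9 the levels also differed between replicate numbers, which was tested after the values had been seen. With group in the fit, 15 of the 45 proteasome genes differed between replicate numbers (limma F test, same thresholds), or 33.3%. The share of all features was 33.5%, so the list stood at the background. In H1299 2 genes did, PSMD5 and PSMD10, or 4.44% against 22.3%.

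PSMD8, a lid subunit of the cap, had H1299shRAD9 CTL levels of 9.01, 9.03, 9.81, 9.77 and 9.68 in replicates 1 to 5. They were 8.96, 9.16, 9.69, 9.88 and 9.77 in DBP, and 9.14, 9.19, 9.76, 9.66 and 9.68 in BP. In all 5 groups replicates 1 and 2 lay below replicates 3, 4 and 5. The replicate means ran from 9.06 to 9.73 (adjusted p = 2.71e-07), whereas those of H1299 ran from 9.25 to 9.33 (adjusted p = 0.986).

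PSMD5, a chaperone of cap assembly, had H1299shRAD9 CTL levels of 3.59, 3.77, 4.24, 4.58 and 4.50, with replicates 1 and 2 again below replicates 3 to 5. Its replicate means in H1299shRAD9 ran from 3.63 to 4.63 (adjusted p = 1.10e-07). In H1299 its means ran from 3.70 to 4.31 (adjusted p = 0.0210). PSMB7 ranged from 8.73 to 9.73 in H1299shRAD9 (adjusted p = 0.000328) and from 9.34 to 9.53 in H1299 (adjusted p = 0.742). PSMC4, a cap ATPase, ranged from 6.94 to 7.67 in H1299shRAD9 (adjusted p = 5.13e-05). PSMB8, outside the list, ranged from 1.81 to 2.53 in H1299shRAD9 (adjusted p = 1.43e-07). With slide as a block as well, 4 of the 45 genes were called in H1299shRAD9 and 15.5% of all features, and with slide as a random block 9 and 24.5%. Replicate numbers of H1299shRAD9 also went in part with scan day. In CTL, replicates 1 and 2 were scanned on day 1, replicates 3 and 4 on day 2 and replicate 5 on day 3. Other groups departed from this. BP replicate 1 was scanned on day 6. In DBN and BN, replicate 2 was scanned on day 2, on the same slide as replicate 3 of DBP and BP. Replicates 3 and 4 of DBN and BN were scanned on day 3. Whether scan day or the transfectants divide the replicate numbers was not tested.

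**Figure D4:**
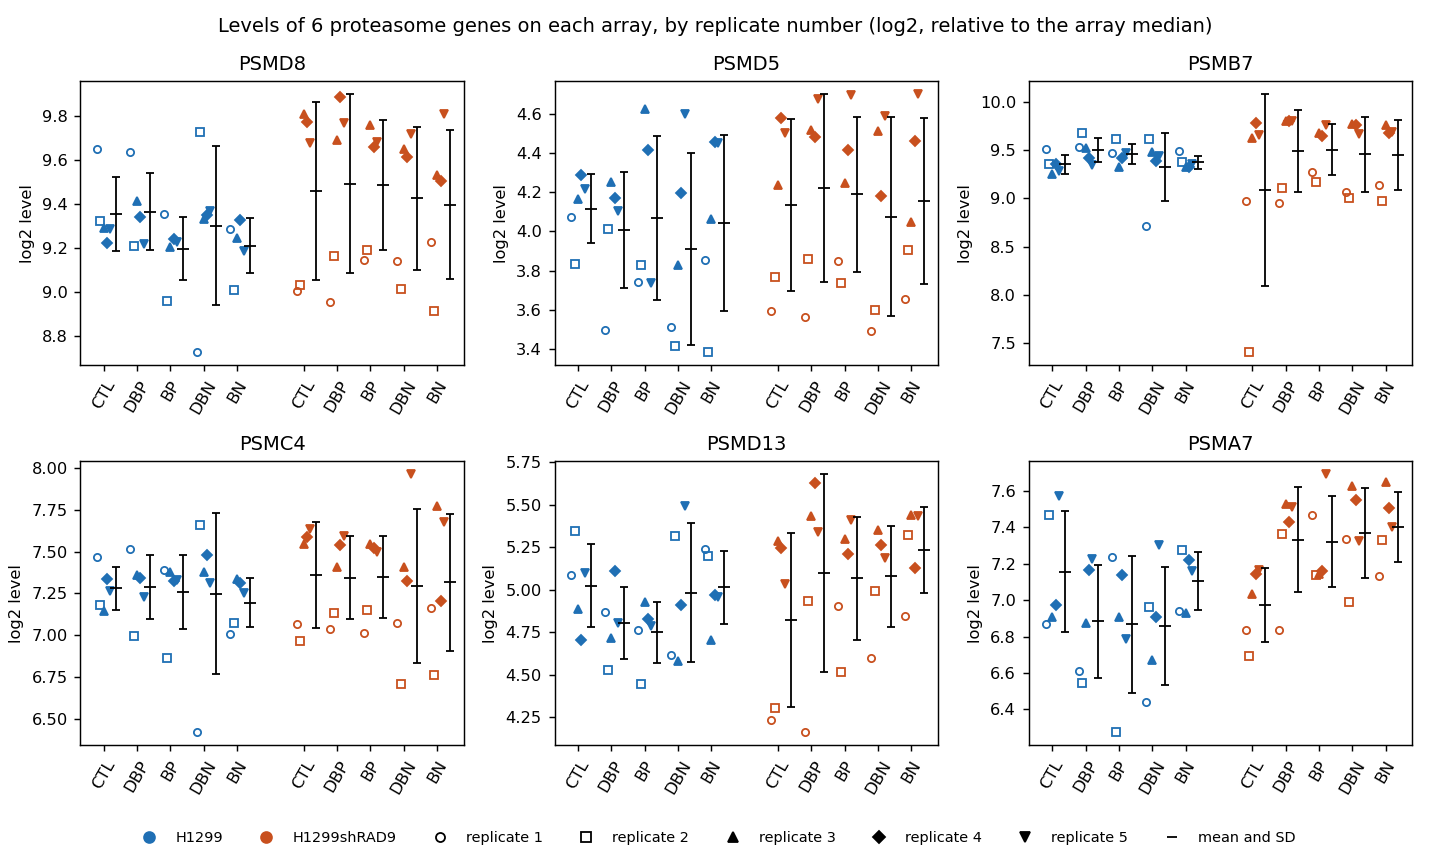
Log2 level relative to the array median (y) of PSMD8, PSMD5, PSMB7, PSMC4, PSMD13 and PSMA7 on each array, by condition (x) with H1299 at left and H1299shRAD9 at right, open symbols for replicates 1 and 2, filled symbols for replicates 3 to 5, and the mean and SD beside each group. In H1299shRAD9 the open symbols of PSMD8 lie between 8.91 and 9.23 and the filled ones higher, up to 9.88.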

How the data were processed

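Per the file headers, Agilent Feature Extraction 11.5.1.1 gave the deposited intensity of each spot after subtracting a spatially fitted background, with surrogate values for low spots. The authors' own processed log2 values, median normalized and filtered, were deposited as 1 table and used as an alternative. Per the labels, each array is 1 sample.

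For the present report the processed intensities were put on the log2 scale and centred on the median of each array over 43118 non-control spots. Outlier spots were then left out and the spots of a probe averaged, which gave 34127 probes. A probe was dropped where at least 25% of the 50 arrays marked it as an outlier or did not find it well above background, and 20079 stayed. The 1.3-fold variation filter of the methods was kept as an alternative, since 10 proteasome genes would pass it. Depth does not apply to arrays, and their number limits the precision.

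Groups were compared with limma 3.58.1 in R 4.3.3 (lmFit, eBayes), lines without pairing, conditions within a line with the replicate number blocked, and interactions with line and replicate blocked. The thresholds were p below 0.006 and a Benjamini-Hochberg rate below 10%. In H1299shRAD9 same-numbered arrays correlated at 0.190 or more after group means were removed, and the number was blocked. Many of them also shared a slide and scan day, such as replicate 5 of CTL, BN, DBP and BP. The correlation therefore does not show that the numbers mark matched dishes. In H1299 the lowest correlation was -0.176, and the block follows the paired test of the methods there. The F test over replicate numbers and the fits without the 3 arrays that stood apart were added after the values were seen. The fits were tested on simulated data.

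Named were all called members, subunits of set roles (cutting subunits, activators, inhibitor, PSMD4, PSMD11, PSMD14, chaperones), the members of highest and lowest level, the member of smallest p where none was called, and the called genes of other lists. PSMD5, PSMD8, PSMD13, PSMC4 and PSMB7 by replicate were chosen after their values were seen. The members and lists were chosen with earlier results of these data known. Sequences are from RefSeq, GRCh38.p14.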

Additional observations from a re-analysis of the deposited data

Results flagged for a closer look

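Single arrays stood far from the others of their group in 17 of the 260 group values examined, and chance gives about 1 in 20. All values are log2 levels relative to the array median. In H1299shRAD9 DBP, replicate 1 was lowest for PSMD4 (8.60), PSMD14 (8.05), PSMG3 (6.08), PSMA7 (6.83) and PSMC3IP (3.81). In H1299 DBN, replicate 1 was lowest for PSMB5 (6.68), PSMB6 (7.69) and PSMB7 (8.72), and it is 1 of the 3 arrays that stood apart. In H1299 DBP, replicate 1, another of them, was lowest for PSMG1 (7.10) and highest for PSMD10 (7.43). In H1299 CTL, replicate 1 was highest for PSME2 (9.41) and PSMD8 (9.65).

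The remaining arrays each stood out for 1 or 2 genes. H1299 BP replicate 2 was lowest for PSME4 (2.35) and PSMG3 (5.13). H1299shRAD9 DBN replicate 1 was highest for PSMB6 (8.71), H1299shRAD9 BN replicate 3 was lowest for PSMD4 (8.95), and H1299shRAD9 BP replicate 5 was highest for PSMG1 (8.20). PSMG1 was called in that group's comparison with H1299 BP.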

How the results depend on the processing

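Among the line comparisons, with 6, 2, 2, 1 and 2 proteasome genes called in CTL, DBP, BP, DBN and BN, no processing alternative turned the direction of a called gene, while the counts moved by more than 1.5 times as follows. With 75th percentile scaling they were 3 in CTL and 0 in DBP, BP and DBN, and with quantile normalization 0 in DBP, BP and DBN. With normexp they were 3 in CTL and 0 in DBP, DBN and BN. The mark for a signal positive and significant gave 1 in DBP and 0 in DBN, and no background filter gave 0 in BP and DBN. The 1.3-fold filter, which 10 of these genes passed, gave 1 in DBP, 1 in BP and 0 in DBN. The authors' table, which held 5 of these genes, gave 1 in BN and 0 elsewhere. Slide as a random block gave 1 in CTL, the 5′-3′ index as a covariate 2 in CTL and 4 in BP, and all groups in 1 fit 3 in CTL, 8 each in DBP and BP, 6 in DBN and 1 in BN. Without the 3 arrays that stood apart DBN had 0. Leaving out 1 array gave 3 to 5 in CTL, 0 to 4 in DBP, 0 to 1 in DBN, 1 to 3 in BP and 2 to 3 in BN.

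With the replicate number as a block, the line comparisons had 2 genes called in CTL and 0 in DBP, BP and DBN. Leaving the block out of the comparisons within a line changed no call of a proteasome gene. H1299shRAD9 DBN against CTL had 1 gene called with quantile normalization and 1 with normexp, and leaving out 1 replicate number, which removes a pair of arrays, gave 0 to 1 there and in DBP against CTL. The other comparisons within a line and the interactions had 0 under every alternative run. Slide as a block could not be fitted in 5 line comparisons, and as a random block in 4.

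Between replicate numbers, H1299shRAD9 had 15 of 45 genes called (33.5% of all features), and 8 with quantile normalization (33.3%). Fewer genes were tested with the 1.3-fold filter, 3 of 10 called (38.3%), and with the authors' table, 2 of 5 (36.7%). The count was 4 with slide as a block (15.5%) and 9 with slide as a random block (24.5%). It was 8 to 14 without 1 replicate number, that is, without its array in each group (24.7% to 34.8%). H1299 had 2 (22.3% of all features), 8 with 75th percentile scaling (25.8%), 9 with quantile normalization (25.7%) and 0 with normexp (6.38%). It had 1 with no background filter (13.2%) and 1 with all probes of a gene averaged (22.5%). With slide as a block it had 0 (1.47%), and as a random block 1 (16.3%). Without 1 replicate number it had 1 to 2 (10.6% to 26.1%). The cause of these shifts was not tested. With 5 arrays a group, differences smaller than the half-width of their interval could not be detected, and larger ones could still miss the thresholds. Dim probes such as that of PSMB11 lie near background.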
